A study of Rattus norvegicus with 6 samples.

Results

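The 10 genes considered here were listed by symbol under bile acid synthesis and conjugation: Cyp7a1, Cyp8b1, Cyp27a1, Cyp7b1, Amacr, Acox2, Slc27a5, Baat, Acnat1 and Acnat2. Apart from Acnat1 and Acnat2 they encode enzymes that turn cholesterol into bile acids or join these to an amino acid. Acnat1 and Acnat2 encode acyltransferases related to Baat, and whether they act on bile acids was not tested. Probes were assigned to the 10 genes through the RefSeq accession printed beside each probe. Of the 10 genes, 9 had a probe, and these are 9 of the 15284 gene symbols that the array carried. No probe matched the current RefSeq accession of Acnat1, which was therefore not measured. All 9 were well above background on each of the 6 arrays, so none entered through a filter on 1 group.

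The samples were liver RNA of 6 male Sprague-Dawley rats, bought at 5 weeks of age, with 1 one-colour Agilent array per animal. In the control group 3 rats received corn oil, the vehicle. In the treated group 3 rats received bromodichloromethane, a by-product of water chlorination, at 200 mg/kg/day. The labels give 28 days in one place and 9 weeks in another, so the length of dosing is not settled. Strain, sex and basal diet were the same in all animals, and females were not studied. Because bulk tissue was measured, fewer cells of a type and less RNA per cell cannot be told apart.

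Bile acids are made in hepatocytes by a classic route, which starts with 7α-hydroxylation of cholesterol, and by an alternative route, which starts with oxidation of the cholesterol side chain. In the classic route the steroid ring is modified first, after which the side chain is shortened in peroxisomes. The acid, as its coenzyme A ester, is then joined to taurine or glycine, which makes it soluble enough for export into bile. Bile acids restrain their own synthesis through the receptor FXR, its target SHP and, from the intestine, the hormone FGF15 acting on the receptor FGFR4.

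On the 6 arrays the 75th percentile probe had a processed signal of 670 to 825 fluorescence units, and 61.3% to 66.9% of the probes were well above background. Levels are given as log2 of the processed signal over that percentile, so that 0 is the brightness of the 75th percentile probe. The number of arrays limits the precision. Slide 1 carried the whole corn oil group with treated replicate 1, and slide 2 the remaining treated animals, so that a comparison within slide 1 rests on 1 treated liver. Scaling by the spiked-in control transcripts instead of the 75th percentile shifted the median of all features from 0.001 to 0.48 on the log2 scale. The features called higher and lower, of 28995 tested, went from 1727 and 988 to 12685 and 311. With median centring they were 2204 and 765. Every fall below is thus relative to the other transcripts of the same liver. Each list's counts with spike-in scaling are to be read against the 12685 and 311 of 28995 features.

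The transcripts of 3 of the 9 measured enzymes fell in treated livers, those of the acyltransferase Acnat2, the racemase Amacr and the oxidase Acox2. With limma none of the 9 rose, and 6 did not pass an adjusted p of 0.05. Over all 28995 features tested, 9.36% were called, 3.41% lower and 5.96% higher. At an unadjusted p under 0.05, 7 of the 9 were lower and 0 higher, against 12.2% and 15.4% of all features. For 6 of the 9 enzymes the groups were fully separated, each time with the treated animals lower. Separation was seen for 34.4% of all features, 16.0% with the treated animals lower and 18.4% with them higher. The median log2 fold change of the 9 was -0.85, against 0.001 over all features. On slide 1 alone the median was -0.71, with spike-in scaling -0.37. Acnat2 was called under all 21 alternative settings. Among the enzymes that did not pass, 3 had separate groups, and these were Cyp8b1, Slc27a5 and Baat.

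**Figure D1:**
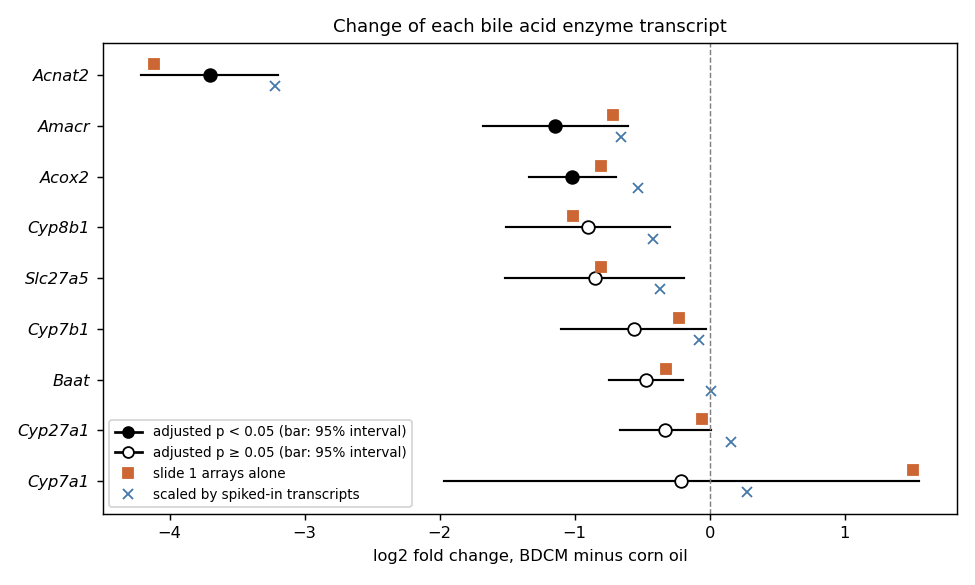
Fitted log2 fold change (x axis, bromodichloromethane, BDCM, minus corn oil) of the 9 measured enzymes, with 95% intervals, filled where the adjusted p was under 0.05; squares give slide 1 arrays alone and crosses give spike-in scaling. Acnat2 lies between -4.11 and -3.22 on these scales, while the interval of Cyp7a1 runs from -1.97 to 1.55 and its slide 1 value is at 1.51.

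The first 4 enzymes act on the steroid ring or open the alternative route, and none of them passed the adjusted test with limma, while Cyp8b1 and Cyp7b1 had an unadjusted p under 0.05. Cyp7a1 is the rate-limiting 7α-hydroxylase of the classic route. Its log2 level was -0.997, -0.32 and -0.26 in the corn oil animals and 0.98, -1.83 and -1.36 in the treated animals. Treated replicate 1 was thus the highest of the 6 livers and the other treated animals were the lowest. The log2 fold change was -0.21 (SE 0.73, adjusted p = 0.88), with a 95% interval from -1.97 to 1.55. Without treated replicate 1 it was -1.07 (adjusted p = 0.096), and on slide 1 alone it was 1.51 (adjusted p = 0.18). No direction can therefore be given for Cyp7a1, and the SD of its log2 level was 1.51 in treated and 0.41 in corn oil livers (n = 3 each).

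Cyp8b1, the 12α-hydroxylase that directs synthesis towards cholic acid, was less scattered. It stood at 5.14, 5.30 and 4.89 in corn oil livers and at 4.10, 3.79 and 4.73 in treated livers. Every treated animal was below every corn oil animal, with treated replicate 3 closest to the controls. The log2 fold change was -0.90 (SE 0.25, adjusted p = 0.078; 95% interval -1.51 to -0.29). The gene passed with normexp background correction, at -1.02 (adjusted p = 0.035), and without treated replicate 3, at -1.16 (adjusted p = 0.045). With spike-in scaling the value was -0.42 (adjusted p = 0.178).

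Cyp27a1, the mitochondrial sterol 27-hydroxylase that oxidises the side chain, was at 4.38, 4.51 and 4.35 with corn oil and at 4.36, 3.93 and 3.96 with treatment. Treated replicate 1 lay within the corn oil range. The difference was -0.33 (SE 0.14, adjusted p = 0.19; 95% interval -0.66 to 0.006), and it was 0.15 with spike-in scaling. Cyp7b1, the oxysterol 7α-hydroxylase of the alternative route, ranged from -0.08 to 0.60 in corn oil and from -0.54 to 0.03 in treated livers, so that the groups overlapped. Its difference was -0.56 (SE 0.22, adjusted p = 0.16; 95% interval -1.10 to -0.03). A second, dimmer Cyp7b1 probe gave -0.30 (SE 0.21), also with overlapping groups.

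**Figure D2:**
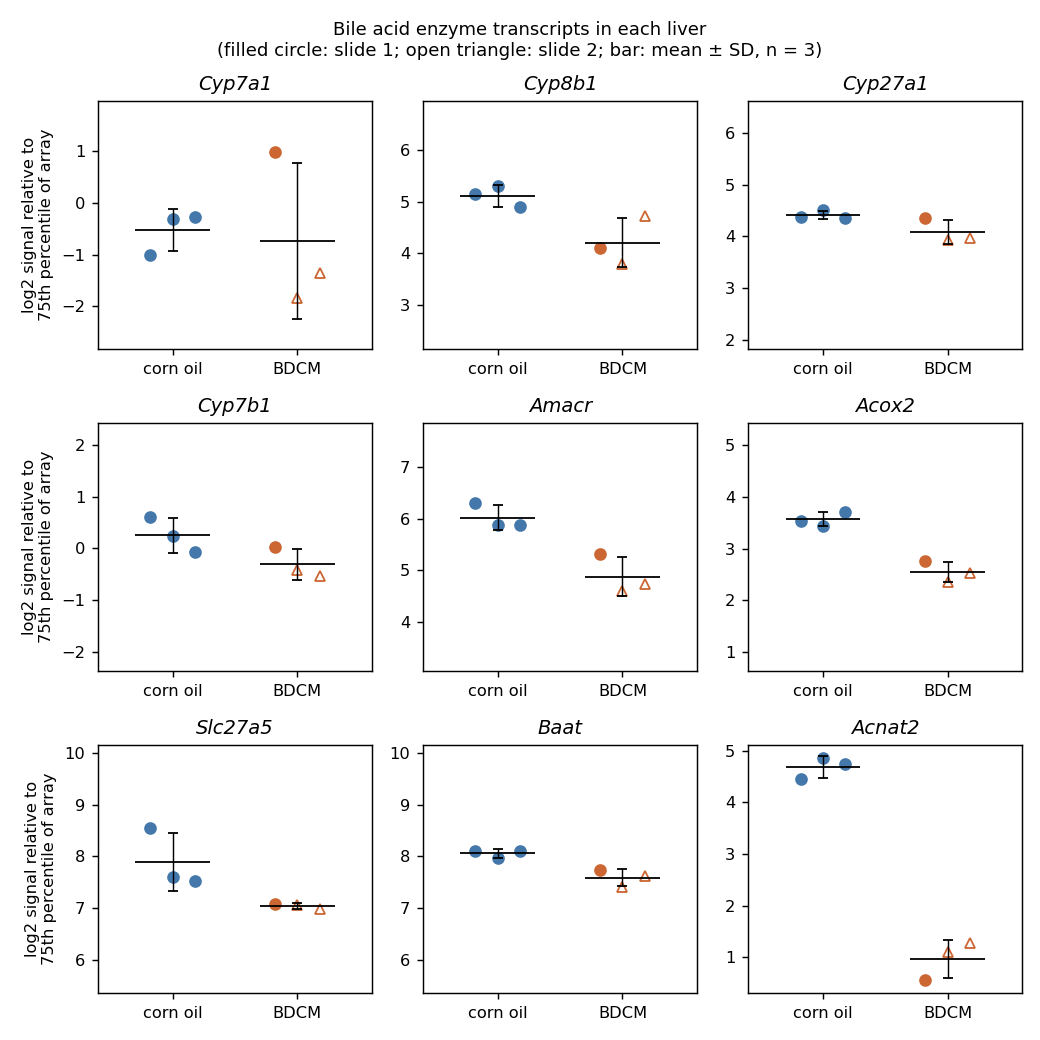
Log2 signal over the array's 75th percentile (y axis, of equal height in log2 units in every panel) in the 3 corn oil and the 3 bromodichloromethane (BDCM) livers, with group mean and SD. For Acnat2 the corn oil livers lie between 4.45 and 4.86 and the treated livers between 0.57 and 1.27, whereas for Cyp7a1 a single treated liver at 0.98 stands above all others.

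Both peroxisomal enzymes that prepare the side chain for shortening fell. Amacr, the racemase that converts bile acid intermediates to the stereoisomer that the oxidase accepts, was at 6.31, 5.88 and 5.87 in corn oil livers and at 5.31, 4.60 and 4.73 in treated livers. The groups were separate, and treated replicate 1 was the treated animal nearest to the controls. Its log2 fold change was -1.14 (SE 0.22, adjusted p = 0.032), a 2.21-fold lower level with a 95% interval from 1.52-fold to 3.20-fold. With spike-in scaling the log2 fold change was -0.66 (adjusted p = 0.022). The other 2 Amacr probes gave -1.18 and -1.12, again with separate groups. The call held without treated replicate 1 but was lost on leaving out any single one of the remaining 5 livers (adjusted p 0.067 to 0.10); on slide 1 alone the value was -0.71 (adjusted p = 0.25).

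Acox2, the branched-chain acyl-CoA oxidase that takes the step after Amacr, was at 3.54, 3.45 and 3.71 with corn oil and at 2.76, 2.36 and 2.53 with treatment. The lowest corn oil liver was thus above the highest treated liver by more than the range of either group. Its log2 fold change was -1.02 (SE 0.13, adjusted p = 0.015), which is 2.02-fold lower with a 95% interval from 1.62-fold to 2.53-fold. The call ended without treated replicate 2 (-0.92, adjusted p = 0.058) and without treated replicate 3 (-1.01, adjusted p = 0.051). On slide 1 alone the value was -0.81 (adjusted p = 0.16), and with slide as a block the adjusted p was 0.081. The promoters of the pair are shown because these genes serve adjoining steps and fell by like amounts. Each window runs from 250 bases before to 50 bases after the annotated start, from RefSeq on build GRCr8, 5′ to 3′ on the gene's strand; Amacr is at chr2:61673085-61673384 (plus strand) and Acox2 at chr15:19090705-19091004 (plus strand), and capitals mark matches to the motifs listed further on.
Amacr: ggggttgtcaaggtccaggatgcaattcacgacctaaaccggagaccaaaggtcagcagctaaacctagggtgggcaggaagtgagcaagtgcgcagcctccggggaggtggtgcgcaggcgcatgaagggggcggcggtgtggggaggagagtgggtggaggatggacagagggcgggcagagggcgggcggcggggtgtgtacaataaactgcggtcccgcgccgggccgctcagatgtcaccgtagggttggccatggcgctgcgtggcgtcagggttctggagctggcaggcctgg
Acox2: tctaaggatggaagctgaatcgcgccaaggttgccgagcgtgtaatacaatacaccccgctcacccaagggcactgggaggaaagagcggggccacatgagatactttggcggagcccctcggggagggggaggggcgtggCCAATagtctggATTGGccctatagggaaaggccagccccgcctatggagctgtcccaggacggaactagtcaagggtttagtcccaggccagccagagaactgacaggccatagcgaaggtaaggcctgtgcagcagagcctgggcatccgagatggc
The Acox2 window holds CCAAT 109 bases before the start, and on the other strand 97 bases before it. In the Amacr window none of the motifs searched was found. Its best local alignment with the Acox2 window covered 105 bases, of which 77 were identical (73.3%). That share was not particular to this pair. Apart from Acnat1 with Acnat2, pairs of the windows used here ran from 69.7% (Baat with Cyp8b1) to 87.2% (Acnat1 with Acox2), over alignments of differing length.

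The last enzymes are Slc27a5 and Baat, which activate bile acids and join them to an amino acid, and Acnat2. Slc27a5, the bile acid-CoA ligase of the liver, was at 8.55, 7.60 and 7.53 in corn oil livers and at 7.09, 7.07 and 6.98 in treated livers. The groups did not overlap, but corn oil replicate 1 was far above the other controls. The difference was -0.85 (SE 0.27, adjusted p = 0.11; 95% interval -1.51 to -0.19). It was -0.52 without corn oil replicate 1 (adjusted p = 0.053). A second Slc27a5 probe showed the same order of groups, with 6.55 in corn oil replicate 1 against 5.46 and 5.35 in the other controls, and a difference of -0.96 (SE 0.32).

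Baat, the bile acid-CoA:amino acid N-acyltransferase that completes conjugation, was at 8.11, 7.96 and 8.11 with corn oil and at 7.73, 7.41 and 7.61 with treatment. The groups were separate. The log2 fold change was -0.47 (SE 0.11, adjusted p = 0.053; 95% interval -0.74 to -0.20), and it was 0.01 with spike-in scaling. Its adjusted p was 0.046 to 0.048 with quantile normalization, normexp, the strict filter on dim probes or a common floor, and 0.024 with the trend and robust options of limma.

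Acnat2, an acyl-CoA amino acid N-acyltransferase related to Baat, changed most among the 9. Its processed signal was 14623, 21208 and 20117 fluorescence units in corn oil livers and 1224, 1759 and 1807 in treated livers. On the log2 scale these were 4.45, 4.86 and 4.73 against 0.57, 1.097 and 1.27. The treated animals were all far below the controls, and treated replicate 1, on the controls' slide, was the lowest. The log2 fold change was -3.70 (SE 0.21, adjusted p = 0.0023), or 13.0-fold lower with a 95% interval from 9.15-fold to 18.5-fold. Leaving out any one animal gave values from -3.85 to -3.50 and kept the call (adjusted p up to 0.015). On slide 1 alone it was -4.11 (adjusted p = 0.023), and with spike-in scaling -3.22.

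In the RefSeq gene order Acnat2, the pseudogene Acnat2-ps1, Acnat1 and Baat follow each other on rat chromosome 5. The promoter windows of the 3 coding genes are given because this neighbourhood holds the largest change and a much smaller one side by side. They come from RefSeq on build GRCr8 and are on the minus strand, Acnat2 at chr5:68552970-68553269, Acnat1 at chr5:68597118-68597417 and Baat at chr5:68656088-68656387, with capitals for motif matches.
Acnat2: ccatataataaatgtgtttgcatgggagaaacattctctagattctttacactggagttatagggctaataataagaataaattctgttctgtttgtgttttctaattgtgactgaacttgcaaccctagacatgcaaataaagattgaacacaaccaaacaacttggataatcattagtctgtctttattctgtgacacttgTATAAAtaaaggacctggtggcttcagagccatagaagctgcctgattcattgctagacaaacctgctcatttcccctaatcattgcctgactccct
Acnat1: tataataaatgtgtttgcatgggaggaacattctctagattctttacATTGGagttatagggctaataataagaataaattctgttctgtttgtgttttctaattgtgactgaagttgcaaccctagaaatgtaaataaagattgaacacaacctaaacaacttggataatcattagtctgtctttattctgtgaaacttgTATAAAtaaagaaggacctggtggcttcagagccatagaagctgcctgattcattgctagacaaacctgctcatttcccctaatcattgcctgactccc
Baat: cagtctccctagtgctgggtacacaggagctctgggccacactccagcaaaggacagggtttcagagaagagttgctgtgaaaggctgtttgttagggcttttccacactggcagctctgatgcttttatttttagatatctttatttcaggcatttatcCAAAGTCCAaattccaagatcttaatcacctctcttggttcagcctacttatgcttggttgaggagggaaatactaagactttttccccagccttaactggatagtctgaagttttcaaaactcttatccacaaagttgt
Acnat2 and Acnat1 aligned over 296 bases with 290 identical (98.0%). The Baat window aligned with that of Acnat2 over only 154 bases, of which 109 were identical (70.8%). That share was close to the lowest of all pairs, 69.7% for Baat with Cyp8b1. Both Acnat windows hold TATAAA, 47 bases before the start in Acnat2 and 49 in Acnat1, and Acnat1 also holds CCAAT on the other strand. The capitals in Baat mark CAAAGTCCA, 90 bases before the start. Whether the Acnat2 probe also binds transcripts of Acnat1 or of the pseudogene was not tested, since neither the probe's sequence nor the transcripts were compared here, and the source of the signal is uncertain to that extent.

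Promoter windows of 8 of the 10 genes were used here, those of Cyp7a1 and Cyp7b1 not being in the table of RefSeq windows at hand. These were searched on both strands for 9 motifs, and the share of all 33469 windows with a match is given beside each. The HNF4 motif CAAAGTCCA was in 1 of 8, Baat (0.391% of all windows). The LRH-1 motif CAAGGTCA was in 1, Cyp27a1 (1.52%), and the antioxidant element TGACNNNGC in 1, Cyp8b1 (12.1%). TATAAA was in 2 (14.2%) and CCAAT in 3, Acnat1, Acox2 and Cyp27a1 (37.5%). No window held the direct repeat of AGGTCA with 1 base between (0.0538%), its inverted repeat with 1 base between (0.0269%), the palindromic HNF1 motif of GTTAAT, 1 free base and ATTAAC (0.00299%) or the C/EBP motif TTGCGCAA (0.170%). CAAGGTCA ends in AGGTCA, so it can overlap with both repeats. A match is only a match of letters.

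Among 18 other measured genes listed as enzymes and helpers of bile acid synthesis, 1 rose, 1 fell and 16 did not pass the test, with a median log2 fold change of -0.06. With spike-in scaling 8 of the 18 were called higher and 0 lower, against 12685 and 311 of all 28995 features. The one that rose was Acaa1b, a peroxisomal 3-ketoacyl-CoA thiolase, at 7.86, 7.45 and 7.39 in corn oil and at 8.56, 8.53 and 8.50 in treated livers. The difference was 0.96 (SE 0.14, adjusted p = 0.018). Whether Acaa1b acts on bile acid intermediates was not tested. The one that fell was Cyp39a1, another oxysterol 7α-hydroxylase, at -0.49 (SE 0.10, adjusted p = 0.040), but its difference was -0.009 with spike-in scaling. The call of Cyp39a1 ended when any one animal was left out (adjusted p from 0.066 to 0.13), and that of Acaa1b without corn oil replicate 2 or any one treated animal (up to 0.073). Hsd3b7, the dehydrogenase that follows Cyp7a1 and a gene named after its values were seen, was at 0.99 in treated replicate 3 and between 2.18 and 2.80 in the other 5 livers. Its difference was -0.80 (SE 0.38, adjusted p = 0.24), and -0.36 without that animal.

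Conjugation also needs taurine or glycine. Of 7 measured genes listed for the supply or use of these amino acids, 3 fell and 4 did not pass. The median was -0.91, and -0.40 on slide 1 alone. Cdo1, the cysteine dioxygenase that starts taurine synthesis, was at 4.22, 4.12 and 4.10 in corn oil livers and at 3.08, 3.25 and 3.25 in treated livers. Its log2 fold change was -0.95 (SE 0.09, adjusted p = 0.0074). The call held with any one animal left out and was lost with spike-in scaling (-0.47, adjusted p = 0.058). Csad, the cysteine sulfinate decarboxylase of the next step, was at 1.01, 1.64 and 1.33 against -0.24, -0.12 and -0.11. The groups of both genes were well apart. The difference for Csad was -1.48 (SE 0.17, adjusted p = 0.010), and without treated replicate 2 the value was -1.50 and the adjusted p 0.051. Gnmt, the glycine N-methyltransferase, which uses glycine rather than supplying it, was at -0.93 (SE 0.15, adjusted p = 0.023). Its call ended without corn oil replicate 1 or 2 or treated replicate 2 or 3 (adjusted p up to 0.084). It also ended with spike-in scaling (-0.45, adjusted p = 0.066). With that scaling 1 of the 7, Csad, was called lower.

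Calls among transporters of bile acids and sterols went both ways, with 2 of 15 measured genes higher, 3 lower and 10 not past the threshold (4 higher and 1 lower with spike-in scaling). The median was -0.42. At an unadjusted p under 0.05 with limma, 8 of the 15 were lower and 2 higher, against 12.2% and 15.4% of all features. The groups were separate for 9 with the treated animals lower and for 3 with them higher, against 16.0% and 18.4% of all features. Abcc3, an export pump of the blood-facing membrane that carries bile acid conjugates, was at -2.87, -3.19 and -2.91 with corn oil and at 1.31, 1.57 and 1.44 with treatment (log2 fold change 4.43, SE 0.13, adjusted p = 0.00052). The groups were far apart, and the call held with any one animal left out; normexp gave 3.81. Abcc4, a related pump, was higher by 0.68 (SE 0.15, adjusted p = 0.046), a call that held only without treated replicate 3 among the fits that left out 1 animal. Abcg8, a subunit of the sterol pump into bile, was at -1.71 (SE 0.34, adjusted p = 0.034), and Slco2b1, an organic anion carrier, at -0.45 (SE 0.08, adjusted p = 0.026). The calls of Abcg8 and Slco2b1 ended when any one animal was left out (adjusted p from 0.052 to 0.11), normexp moved Abcg8 to -1.06, and Slco2b1 was at 0.03 with spike-in scaling. Slc10a1, the main uptake carrier for bile salts and again named after its values were seen, ranged from 6.52 to 6.56 in corn oil and from 5.99 to 6.19 in treated livers. It was at -0.44 (SE 0.09, adjusted p = 0.036), but 0.04 with spike-in scaling, and did not pass with any one animal left out (0.072 to 0.12).

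**Figure D3:**
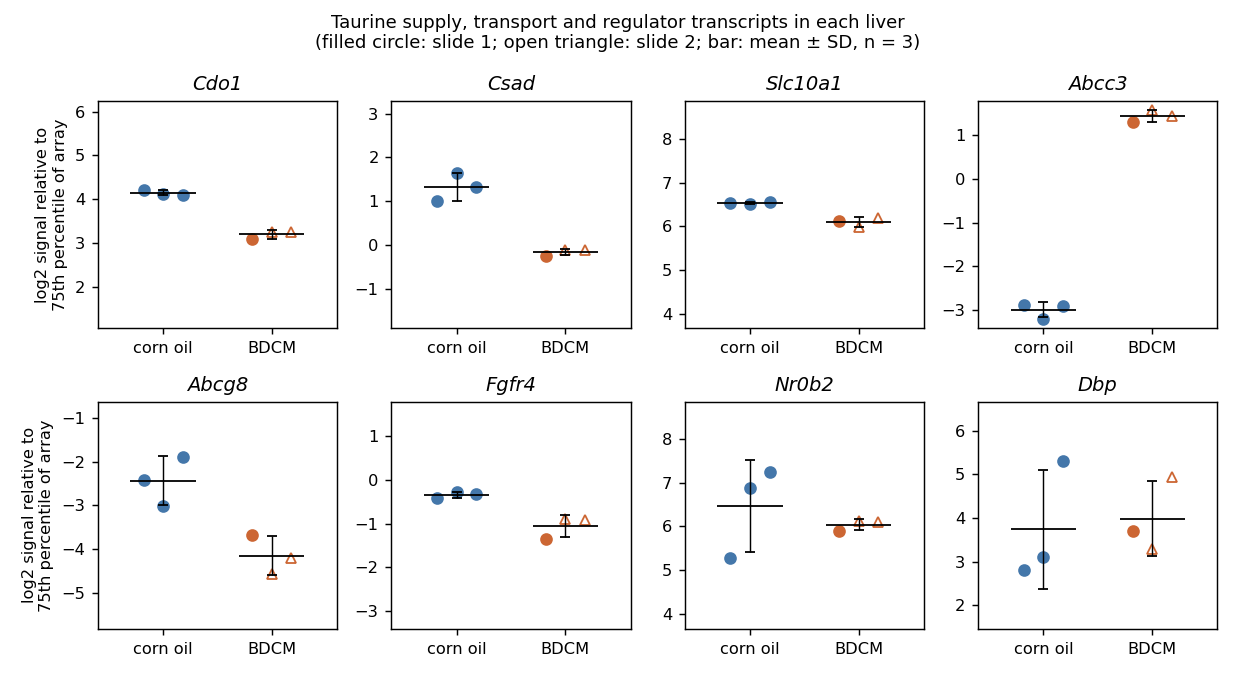
Log2 signal over the array's 75th percentile (y axis, of equal height in log2 units in every panel) of 8 transcripts linked to taurine supply, transport and regulation, per liver, with group mean and SD; BDCM is bromodichloromethane. Cdo1, Csad and Abcc3 show separate groups, while Dbp runs from 2.82 to 5.31 within the corn oil group alone.

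Enzymes that sulfate, glucuronidate or hydroxylate bile acids and other compounds were also split, with 3 of 12 measured genes higher and 2 lower (6 and 2 with spike-in scaling). Sult2a6, a hydroxysteroid sulfotransferase, was at 4.39, 2.89 and 2.40 with corn oil against 5.28, 7.07 and 6.24 (log2 fold change 2.97, SE 0.64, adjusted p = 0.041). It was at 2.05 on slide 1 alone (adjusted p = 0.32), and its call held only without corn oil replicate 1 among the fits that left out 1 animal. Ugt2b7, a glucuronosyltransferase that was not well above background in 1 corn oil liver, was higher by 2.52 (SE 0.58, adjusted p = 0.048), 1.88 without corn oil replicate 1 and 1.28 with normexp. Its call ended without corn oil replicate 2 or any one treated animal (adjusted p up to 0.13). Cyp3a9 and Cyp3a2, monooxygenases of the CYP3A family, fell by 2.10 (SE 0.17, adjusted p = 0.0041) and 1.74 (SE 0.31, adjusted p = 0.026) on the log2 scale. The Cyp3a9 call held with any one animal left out, and that of Cyp3a2 ended without any one corn oil animal or treated replicate 1 (up to 0.080).

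Of 20 measured regulators of bile acid synthesis 2 fell, none rose with limma and 18 did not pass, with a median of -0.19. At an unadjusted p under 0.05, 6 were lower and 0 higher. With spike-in scaling the median was 0.29, and 3 were called higher and 0 lower, against 12685 and 311 of all 28995 features. Fgfr4, the hepatic FGF15 receptor, was at -0.41, -0.27 and -0.32 in corn oil and at -1.34, -0.89 and -0.91 in treated livers, with separate groups. Its difference was -0.72 (SE 0.14, adjusted p = 0.035). Rxra, the shared partner of FXR and other receptors, was at -0.51 (SE 0.10, adjusted p = 0.032), and -0.03 with spike-in scaling. Both calls held without treated replicate 1 and ended without any one of the other animals (adjusted p up to 0.11). A pair of regulators was named after their values were seen because they varied widely between livers. Nr0b2, which encodes SHP, was at 5.26, 6.87 and 7.24 with corn oil and at 5.89, 6.12 and 6.09 with treatment (log2 fold change -0.42, SE 0.49, adjusted p = 0.63), and without corn oil replicate 1 it was at -1.02 with an adjusted p of 0.041. Dbp, a clock-driven factor known to act on Cyp7a1, was at 2.82, 3.10 and 5.31 against 3.71, 3.30 and 4.95. The liver with the highest Cyp7a1, treated replicate 1, had Nr0b2 at 5.89, below the other treated livers and above corn oil replicate 1 at 5.26. Its Dbp was at 3.71, between the other treated livers at 3.30 and 4.95. The part of Nr0b2 and Dbp in the Cyp7a1 values was not tested.

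Because Amacr and Acox2 act in peroxisomes, other peroxisomal genes were read beside them. Of 16 measured peroxisome biogenesis genes 0 passed with limma, 3 had an unadjusted p under 0.05, and the smallest adjusted p-values were those of Pex11g and Pex26, factors of peroxisome division and import (0.39 and 0.37, adjusted p = 0.11 and 0.13). Of 22 peroxisomal oxidation genes 1 rose, 2 fell (6 with normexp) and 19 did not pass. At an unadjusted p under 0.05 with limma, 10 of the 22 were lower and 3 higher, against 12.2% and 15.4% of all features. The groups were separate for 10 with the treated animals lower and for 3 with them higher, against 16.0% and 18.4% of all features. With spike-in scaling 4 biogenesis and 8 oxidation genes were called higher and 0 lower, against 12685 and 311 of all 28995 features. Hao2, a hydroxyacid oxidase, was at -0.95 (SE 0.14, adjusted p = 0.018), and Phyh, the phytanoyl-CoA hydroxylase, at -0.76 (SE 0.12, adjusted p = 0.022). Far1, a fatty acyl-CoA reductase near background, was higher by 0.74 (SE 0.10, adjusted p = 0.017), and by 0.10 with normexp. The calls of Hao2 and Phyh each held in 2 of the 6 fits without 1 animal, and that of Far1 in 4. Of 20 genes of cholesterol synthesis and uptake, Sc5d, the lathosterol oxidase, was the one that passed, at -0.73 (SE 0.15, adjusted p = 0.038), with the call held in 1 of those 6 fits (2 of the 20 higher and 0 lower with spike-in scaling). The median of the 20 was -0.23. At an unadjusted p under 0.05 with limma, 6 of them were lower and 0 higher, against 12.2% and 15.4% of all features. Among all genes named beside the enzymes, Abcc3 and Cyp3a9 also passed on slide 1 alone, and these with Cdo1 and Fgfr4 passed with slide as a block. With no filter on dim probes Abcc3, Cyp3a9, Csad and Cdo1 kept their calls and the other pathway genes named as called did not. The calls of Cyp39a1, Fgfr4, Rxra, Slco2b1, Cdo1, Gnmt, Hao2, Phyh, Sc5d and Slc10a1 were lost with spike-in scaling. With spike-in scaling the median was below 0 for the enzymes and for the taurine and glycine list (-0.43). It was above 0 for transport (0.06) and the other lists of this kind.

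**Figure D4:**
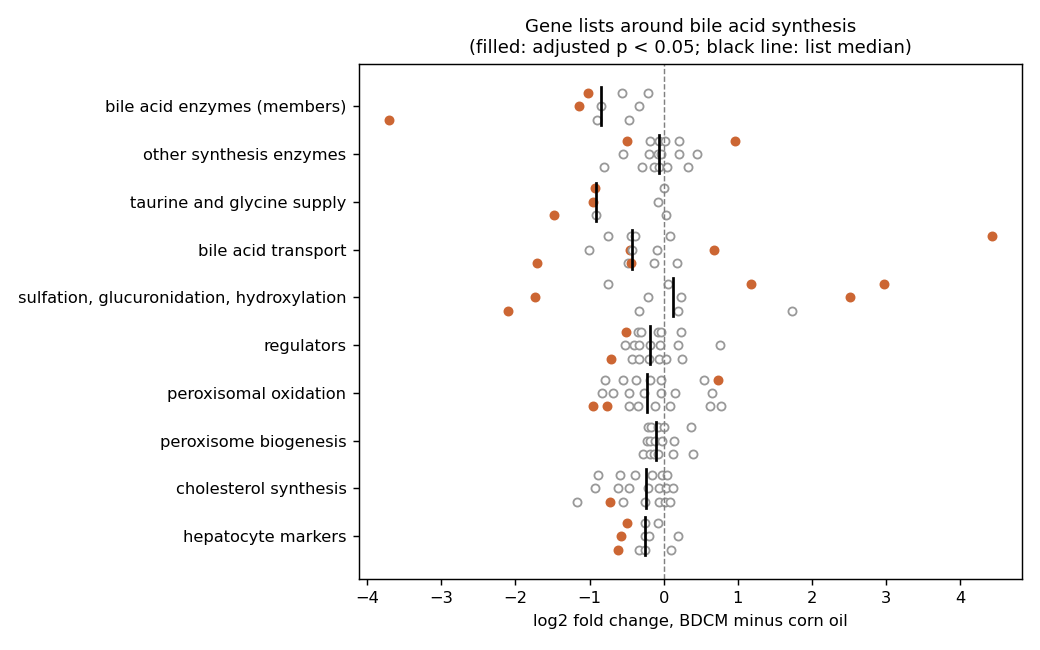
Log2 fold change (x axis, bromodichloromethane, BDCM, minus corn oil) of each measured gene in 10 lists, filled where the adjusted p was under 0.05, with a line at each list's median. The 9 enzymes have a median of -0.85 and the list labelled taurine and glycine supply, which also holds Gnmt, one of -0.91, while peroxisome biogenesis lies at -0.10.

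Markers checked the tissue and the other cell types it could hold. All 11 hepatocyte markers were measured, among them Alb and Ttr, major secreted proteins of hepatocytes, with log2 levels from 9.13 to 9.70. Of these 3 fell (Cps1, Apoa2 and Serpina1 at -0.62, -0.57 and -0.50), none rose, and the median was -0.25 (0.23 with spike-in scaling). At an unadjusted p under 0.05 with limma, 6 of the 11 were lower and 0 higher, against 12.2% and 15.4% of all features. For 8 of the 11 the groups were separate with the treated animals lower, against 16.0% of all features, so such separation was not particular to the enzymes. With any one animal left out the calls of Apoa2 and Serpina1 ended (adjusted p up to 0.12), and that of Cps1 held in 1 of 6 fits. The summed hepatocyte marker signal was 5010 to 5603 times the 75th percentile in corn oil and 4240 to 4709 times in treated livers, so it moved in the same direction as the enzymes. Bile duct markers had 1 of 10 higher (Epcam, 1.12, SE 0.18, adjusted p = 0.021, in 3 of 6 leave-out fits), with sums of 11.5 to 13.4 and 11.3 to 14.4. Of the macrophage (12 measured), stellate (11) and neutrophil (4) markers 0 passed with limma, and 2, 1 and 2 had an unadjusted p under 0.05. The smallest p-values in these lists were those of Cd68 and Lyz2 (differences 0.31 and 0.36), Timp1 and Des (0.47 and 0.31) and S100a8 and S100a9 (0.50 and 0.43), with adjusted p from 0.13 to 0.19. Their sums were 241 to 299, 31.4 to 41.0 and 1.47 to 1.89 in corn oil and 252 to 292, 35.2 to 38.8 and 2.09 to 2.54 in treated livers. Lymphocyte markers had 2 of 10 higher, Cd2 and Cd3e, neither of them well above background in any corn oil liver and neither called with normexp. Endothelial markers had 1 of 6 lower, Lyve1 at -0.56 (-0.07 with spike-in scaling), a call that ended with any one animal left out. The sums of the lymphocyte markers were 2.39 to 3.13 and 3.05 to 3.75, and those of the endothelial markers 63.4 to 66.6 and 52.2 to 56.2, in corn oil and treated livers. With spike-in scaling 7 of 12 macrophage, 2 of 11 stellate, 3 of 4 neutrophil, 7 of 10 lymphocyte, 2 of 10 bile duct, 1 of 6 endothelial and 2 of 11 hepatocyte markers were called higher, and 0 lower. Over all 28995 features that scaling called 12685 higher and 311 lower. The part of these marker shifts in the enzymes' changes was not tested.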

How the data were processed

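Liver RNA of 6 rats was hybridised to Agilent arrays, 1 per animal, and, per the submitters' processing notes, scans were read out by Feature Extraction 10.7 of Agilent. The deposited scanner files hold background-subtracted linear intensity, not scaled between arrays, per the file headers. A deposited value table holds a ratio, from the values the signal over the 75th percentile of its array (at least 96.4% of probes within 1%); it served as an alternative.

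Flagged spots were left out (27 probes). Intensity was taken to log2 minus the 75th percentile. Accessions were matched to RefSeq (GRCr8, names and promoters only; the headers name an older build), naming 27460 of 61657 probes. Probes well above background on all 3 arrays of a group were kept, the brightest per gene, giving 28995 features. These were tested with limma 3.58.1 in R 4.3.3 (lmFit, eBayes, two-sided, Benjamini-Hochberg over all features, threshold 0.05). The simulated data on which this procedure was tried held no slide effect, so that trial does not cover the slide layout. SE and the 95% interval are moderated.

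Members and lists were chosen with earlier results of these data known. Named are all members, from each list the called genes that changed most (at most 4), or else the 2 of smallest p, and 4 genes chosen after their values were seen. The planned normexp correction used median spot signal, because the columns used here give no mean signal, a change made after seeing the files.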

Additional observations from a re-analysis of the deposited data

How the results depend on the processing

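Another 21 settings were tried. Features past the threshold (2715) numbered 12996 with spike-in scaling, 609 with no filter on dim probes, 350 with slide as a fixed block, 120 on slide 1 alone and 353 with the replicate block, and 335 to 1232 with 1 animal left out. The 3 enzymes called lower became 5 with normexp, 1 with slide as a block and 1 on slide 1 alone, and 1 to 3 with 1 animal left out; 0 were called higher under any setting. Cyp7a1 was at 0.27 with spike-in scaling, 1.51 with slide as a block and on slide 1 alone, and -1.07 to 0.34 with 1 animal left out. Spike-in scaling also put Cyp27a1 at 0.15, Baat at 0.011, Slco2b1 at 0.031, Slc10a1 at 0.044 and Nr0b2 at 0.060, above 0. Dbp was at -0.036 with slide as a block and on slide 1 alone, and -0.24 to 1.03 with 1 animal left out. Amacr lost its call with no filter on dim probes (-1.14), with slide as a block and on slide 1 alone (both -0.71), and ranged from -1.36 to -0.999 with 1 animal left out. Acox2 lost it with slide as a block and on slide 1 alone (both -0.81) and with the replicate block (-1.02), and ranged from -1.12 to -0.92. Cyp8b1 passed with normexp (-1.02) and ranged from -1.16 to -0.70. Baat passed with quantile normalization, the strict filter, the common floor and trend and robust options (all -0.47) and with normexp (-0.38). Slc27a5 and Cyp7b1 kept their direction and did not pass under any setting. With the replicate block Abcc3, Cyp3a9, Csad, Gnmt and Hao2 kept their calls among the pathway genes named as called, and the others, such as Cdo1 (adjusted p = 0.052), did not. Replicate numbers were not taken to pair the samples. The deviations of same-numbered animals correlated at 0.092, 0.019 and 0.12. Animals of different number were not compared, so these values do not settle whether the samples were paired. The losses with fewer animals come with fewer samples tested; the cause of the other shifts was not tested.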
